A study of Mus musculus with 8 samples.

Results

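The IL-1 family ligand genes measured here were Il1a, Il1b, Il1rn, Il18, Il33, Il1f5, Il1f6, Il1f8 and Il1f9, 9 of the 49315 genes in the deposited counts, taken by name. The last 4 are also called Il36rn, Il36a, Il36b and Il36g. RNA of the whole esophagus was compared between 4 EoE33 mice, transgenic animals that overexpress IL-33 in the esophageal epithelium, and 4 wild type C57BL/6J littermates. All 8 mice were males aged 8 weeks. Neither the promoter of the transgene nor the form of IL-33 it encodes is given in the sources used here.

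IL-1 family cytokines signal through paired receptor chains that carry a shared intracellular domain, recruit MyD88 and IRAK kinases and activate NF-kB. IL-1 alpha and IL-1 beta (Il1a, Il1b) act on the IL-1 receptor, which the antagonist Il1rn blocks. The IL-36 agonists (Il1f6, Il1f8, Il1f9) act on the receptor Il1rl2, which the antagonist Il1f5 blocks. IL-18 acts on Il18r1 with Il18rap, and IL-33 on ST2, the product of Il1rl1. Most of these ligands lack a signal peptide and are released from damaged or dying cells, and several need a protease to become active. Squamous epithelia hold stores of IL-33, IL-1 alpha, IL-18 and the IL-36 cytokines, while IL-1 beta is made mostly by myeloid cells and needs to be cut before it is active.

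Libraries held 17.7 to 24.1 times 1e6 counts. Keratinocyte and muscle markers of the esophagus were abundant in all 8. Alb, a hepatocyte gene, was at 91.3 CPM in wild type replicate 1 and at 3.21 to 6.90 CPM in the other wild type libraries. Scgb1a1, an airway gene, was at 351 CPM in wild type replicate 3 and at 5.44 to 5.90 CPM in the other wild type libraries. Results were therefore also computed without this pair. Chil4, a chitinase-like gene, took 6.91% to 10.98% of counts in EoE33 and 0.0157% to 0.0196% in wild type.

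The family split in the EoE33 esophagus. Il1b, Il33, Il1a and Il1rn rose, Il1f5, Il18 and Il1f8 fell, and Il1f6 and Il1f9 did not pass the test. The 7 called genes of 9 compare with 63.4% of all 16760 genes tested (edgeR quasi-likelihood test, Benjamini-Hochberg adjusted p under 0.05 over all genes, here and below). By direction, 4 of the 9 rose where 31.3% of all genes did, and 3 fell where 32.1% did. In 8 of the 9 genes the EoE33 and wild type libraries did not overlap, as in 59.5% of all genes tested. EoE33 libraries lay above in 4 of these, against 29.6% of all genes, and below in 4, against 29.9%. The median absolute log2 fold change was 1.65 over the 9 genes and 0.52 over all genes tested. All 9 passed the filter on low counts.

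Of the 9 genes, 7 lie on chromosome 2 in GRCm38, in a pair of clusters. The first holds, in order, Il1f8 (24153161 to 24160519), Il1f9 (24186476 to 24193568), Il1f6 (24215418 to 24225702), Il1f5 (24276954 to 24283426) and Il1rn (24336853 to 24351494), all on the plus strand. Il1a (129299610 to 129309972) and Il1b (129364570 to 129371139) lie farther along on the minus strand. Il18 is on chromosome 9 (50554827 to 50581840) and Il33 on chromosome 19 (29925114 to 29960718). Upstream sequence of 5 of them, which differ in response, is shown, without that of Il1f5, which had the largest fall. The sequences are those of the gene of the transgene's product, the gene with the largest rise, and Il18, which fell. The others are those of the adjacent genes Il1f8, which fell, and Il1f9, which did not pass. Each is the 250 bases before the annotated start in RefSeq (GRCm38.p6), 5′ to 3′ on the gene's strand, at chr19:29924863-29925112 (plus) for Il33, chr2:129371140-129371389 (minus) for Il1b, chr9:50554450-50554699 (plus) for Il18, chr2:24152922-24153171 (plus) for Il1f8 and chr2:24186226-24186475 (plus) for Il1f9. Capitals mark matches to a TATA box (TATAAA), an AP-1 site (TGANTCA) or a STAT6 site (TTCNNNNGAA), searched on both strands.
Il33: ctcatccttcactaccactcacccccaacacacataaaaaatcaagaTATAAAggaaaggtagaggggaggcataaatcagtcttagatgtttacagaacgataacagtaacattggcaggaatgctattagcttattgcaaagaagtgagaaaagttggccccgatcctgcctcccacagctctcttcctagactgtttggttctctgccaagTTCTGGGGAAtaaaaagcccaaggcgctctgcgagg
Il1b: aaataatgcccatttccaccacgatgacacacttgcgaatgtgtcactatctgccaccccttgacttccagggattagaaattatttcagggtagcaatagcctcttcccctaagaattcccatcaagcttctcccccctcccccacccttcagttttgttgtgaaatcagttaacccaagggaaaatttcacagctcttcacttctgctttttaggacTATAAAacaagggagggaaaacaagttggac
Il18: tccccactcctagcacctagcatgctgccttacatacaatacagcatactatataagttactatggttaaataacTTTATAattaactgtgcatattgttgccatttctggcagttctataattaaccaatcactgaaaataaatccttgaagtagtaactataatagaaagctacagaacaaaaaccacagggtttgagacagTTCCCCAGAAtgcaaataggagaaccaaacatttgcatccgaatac
Il1f8: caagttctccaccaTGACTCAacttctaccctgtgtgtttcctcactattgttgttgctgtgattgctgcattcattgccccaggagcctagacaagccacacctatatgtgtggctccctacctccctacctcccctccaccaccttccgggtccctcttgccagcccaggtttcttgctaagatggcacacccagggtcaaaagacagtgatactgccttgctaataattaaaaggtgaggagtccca
Il1f9: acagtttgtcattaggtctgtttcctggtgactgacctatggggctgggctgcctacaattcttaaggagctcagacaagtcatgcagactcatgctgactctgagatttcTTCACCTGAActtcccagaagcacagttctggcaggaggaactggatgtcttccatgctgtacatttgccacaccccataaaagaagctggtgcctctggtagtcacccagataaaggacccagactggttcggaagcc

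STAT6 is the transcription factor of IL-4 and IL-13 signalling, and AP-1 and NF-kB act below IL-1 family receptors. Of the 8 ligand genes with a window in the RefSeq table, Il33, Il18 and Il1f9 held the letters of a STAT6 site, as did 5.87% of the windows of 27025 genes. In Il33 the match lay 36 to 27 bases before the start and in Il18 46 to 37 bases before it. The RefSeq start of Il18 lies 127 bases upstream of the GENCODE start that its coordinates above begin with, while for the other windows shown the starts differ by at most 11 bases. The AP-1 letters were present in Il1a, Il1f8 and Il1rn, against 6.87% of all windows. A TATA box lay 31 to 26 bases before the start of Il1b and 32 to 27 before that of Il1a, and 4 of the 8 genes held its letters anywhere in the window, against 12.97% of all. The kappa B consensus was in 3.75% of all windows and in 0 of the 8. These are matches of letters in a short window and show no binding.

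Il33 was high and even across the EoE33 mice. Its level was 355, 393, 369.8 and 367 CPM (counts per 1000000, scaled by TMM library sizes) in EoE33 replicates 1 to 4, against 123, 128, 165 and 99.8 CPM in wild type replicates 1 to 4. Every EoE33 library lay above every wild type library. The coefficient of variation was 4.34% in EoE33, lower than that of any other ligand gene there, and 21.0% in wild type. The rise was 2.88-fold (log2 1.53 ± 0.14 SE, edgeR adjusted p = 1.52e-05). Counts per gene do not separate transcripts of the transgene from those of the mouse's own Il33, so the rise cannot be divided between them.

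**Figure D1:**
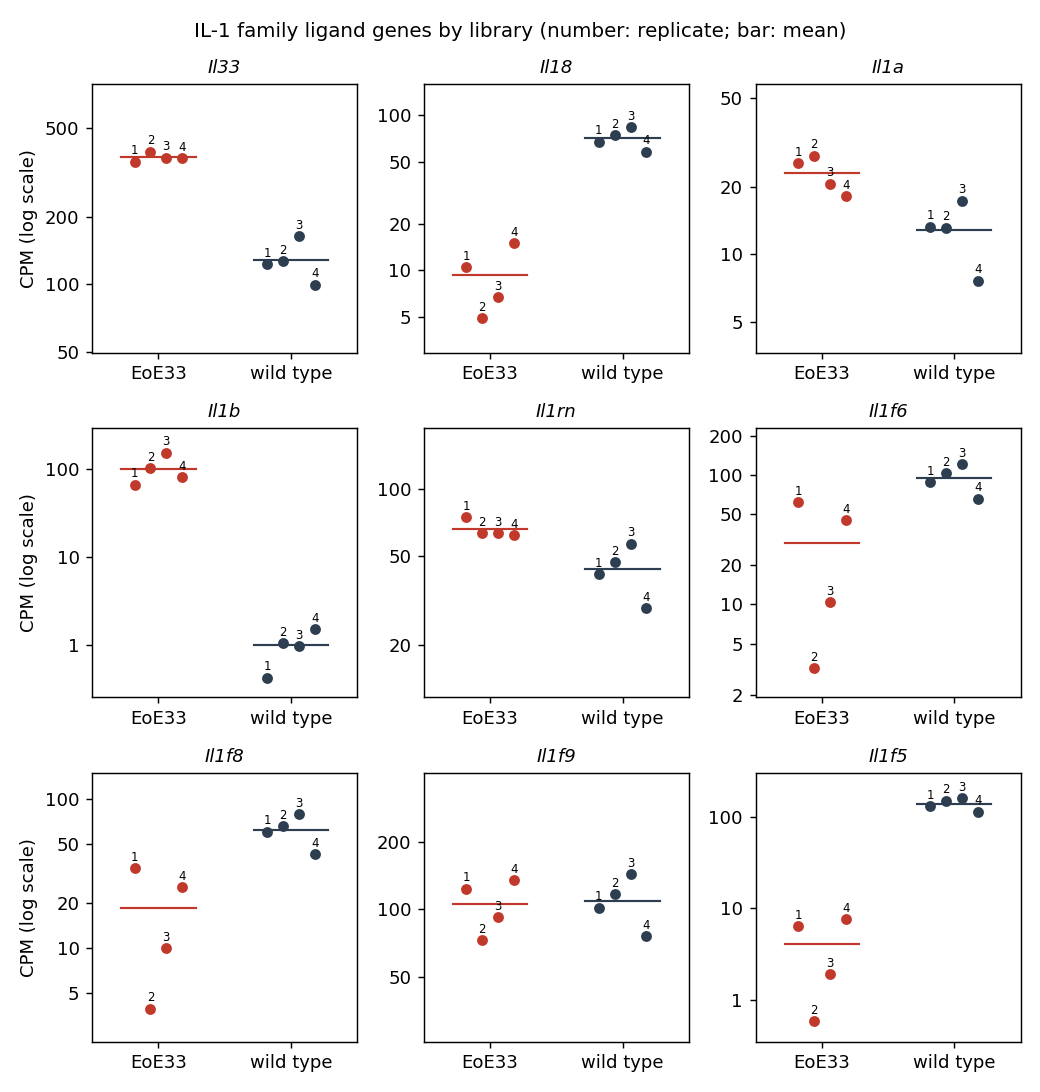
Level of each ligand gene in each library, in CPM on a log axis whose range differs between panels. Points are libraries with their replicate numbers and bars are group means (4 EoE33 and 4 wild type). Groups overlap in Il1f9, and EoE33 replicates 2 and 3 lie far below replicates 1 and 4 in Il1f5, Il1f6 and Il1f8.

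Markers of tissues that can hold Il33 transcripts differed between the groups. Keratinocytes of the basal layer, endothelium and fibroblasts are known sources of IL-33 in mice. The summed level of 8 basal keratinocyte markers was 16647 to 20421 CPM in EoE33 and 4084 to 5624 CPM in wild type. Of the 8, 6 rose and 2 fell, namely Krt15 and Dst. Krt14 and Krt5 carried most of the gap in the sum. Krt14 was at 8527 ± 664 CPM in EoE33 and 513 ± 116 CPM in wild type (SD over 4 mice each). Krt5 was at 7400 ± 1004 CPM in EoE33 and 1886 ± 310 CPM in wild type (SD over 4 mice each). For this and the later marker lists, 31.3% of all genes tested rose and 32.1% fell. The 8 fibroblast markers summed to 2121 to 3093 CPM in EoE33 and 3960 to 4789 CPM in wild type, with 1 higher and 6 lower. The 7 endothelial markers summed to 242 to 273 CPM in EoE33 and 226 to 336 CPM in wild type, with 1 higher and 3 lower. The 8 skeletal muscle markers, all of which fell, summed to 7567 to 10150 CPM in EoE33 and 28644 to 30996 CPM in wild type. Muscle sums did not overlap between the groups, and with the muscle level as a term in the fit 0 of the 9 ligand genes passed, so that muscle content and genotype cannot be told apart. The log2 value of Il33 in that fit was 1.67, against 1.53 without the term. It was 4.52 against 6.66 for Il1b, 0.38 against 0.60 for Il1rn and −0.19 against −5.06 for Il1f5, and the other 5 ligand genes changed sign. The part of these shifts in the level of Il33 or of any other ligand was not tested, and in whole tissue fewer cells of a type and less RNA per cell cannot be told apart. The genes whose pattern over the 8 libraries lay nearest to that of Il33 were Clic1, Tgm1 and Rap1gap, with root mean square differences of 0.0904, 0.0958 and 0.0974 in centred log2 CPM. Such differences, here and below, take in the difference between the groups, so a near pattern does not show a shared cell source or control. Tgm1 encodes a transglutaminase of the cornified envelope.

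Il1b showed the largest change of the family. Its level was 65.7, 102, 151 and 80.8 CPM in EoE33 replicates 1 to 4, against 0.424, 1.05, 0.973 and 1.499 CPM in wild type replicates 1 to 4. Over the group these were 8247 counts in EoE33 and 92 in wild type. The lowest EoE33 library was far above the highest wild type library. The rise was 101-fold (log2 6.66 ± 0.41 SE, edgeR adjusted p = 5.14e-06).

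Markers of myeloid cells, which make IL-1 beta, stood higher in the same libraries. Of 13 neutrophil markers, 12 were tested and 11 rose, and their summed level was 1927 to 3283 CPM in EoE33 and 40.7 to 201 CPM in wild type. The wild type maximum was replicate 3, and the other 3 wild type libraries lay between 40.7 and 52.4 CPM. Ltf, the lactoferrin gene, carried much of the sum, at 1683 ± 609 CPM in EoE33 and 46.3 ± 80.8 CPM in wild type, where its highest library held 168 CPM (SD over 4 mice each). Stfa2l1 was the member of that list at 0 counts in every wild type library. Ly6g, Mmp8, Ngp and Retnlg had wild type means of 0.0107, 0.192, 0.236 and 0.299 CPM. Like Stfa2l1, they passed the low-count filter through their EoE33 counts and could hardly have been called lower. Of 13 macrophage and monocyte markers 11 rose, with sums of 865 to 1159 CPM in EoE33 and 440.3 to 876 CPM in wild type, so that these sums overlapped between the groups. EoE33 replicate 3 was highest among EoE33 libraries for Il1b (151 CPM) and for the macrophage sum (1159 CPM), but below replicates 1 and 2 for the neutrophil sum (2744 CPM). The part of either cell type in the level of Il1b was not tested. The nearest patterns over the 8 libraries were those of Cxcl2, a neutrophil chemoattractant gene, of Alox12e, a lipoxygenase gene, and of Retnlg, a neutrophil gene, with root mean square differences of 0.370, 0.379 and 0.456 in centred log2 CPM.

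Il1a and the antagonist gene Il1rn rose far less. Il1a was at 25.6, 27.7, 20.8 and 18.3 CPM in EoE33 replicates 1 to 4, against 13.3, 13.2, 17.4 and 7.62 CPM in wild type replicates 1 to 4. The groups did not overlap but came close, the lowest EoE33 library at 18.3 CPM and the highest wild type library at 17.4 CPM. The rise was 1.79-fold (log2 0.84 ± 0.24 SE, edgeR adjusted p = 0.0127). Il1rn was at 74.8, 63.6, 63.6 and 62.3 CPM in EoE33 replicates 1 to 4, against 41.6, 47.1, 56.8 and 29.2 CPM in wild type replicates 1 to 4. Its rise was 1.51-fold (log2 0.60 ± 0.18 SE, edgeR adjusted p = 0.0165). Counts per gene do not separate the secreted form of the antagonist from the intracellular one.

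The balance of agonist and antagonist transcripts at the IL-1 receptor differed between the groups. To compare genes, levels were divided by exon length (CPM per kilobase). The sum of Il1a and Il1b was 64.1 ± 19.3 CPM per kilobase in EoE33 and 7.04 ± 1.91 in wild type (SD over 4 mice each). The ratio of Il1rn to that sum was 0.285, 0.170, 0.128 and 0.218 in EoE33 replicates 1 to 4, against 1.08, 1.18, 1.10 and 1.14 in wild type replicates 1 to 4. Every EoE33 value lay below every wild type value. The height of the ratio depends on the length used, since the annotated exons of Il1rn span 5535 bases together and its longest transcript 2554, while the difference between groups does not depend on the length of Il1rn. The mean log2 difference of the ratio was −2.55, given as a description without a test because it combines genes of the family.

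**Figure D2:**
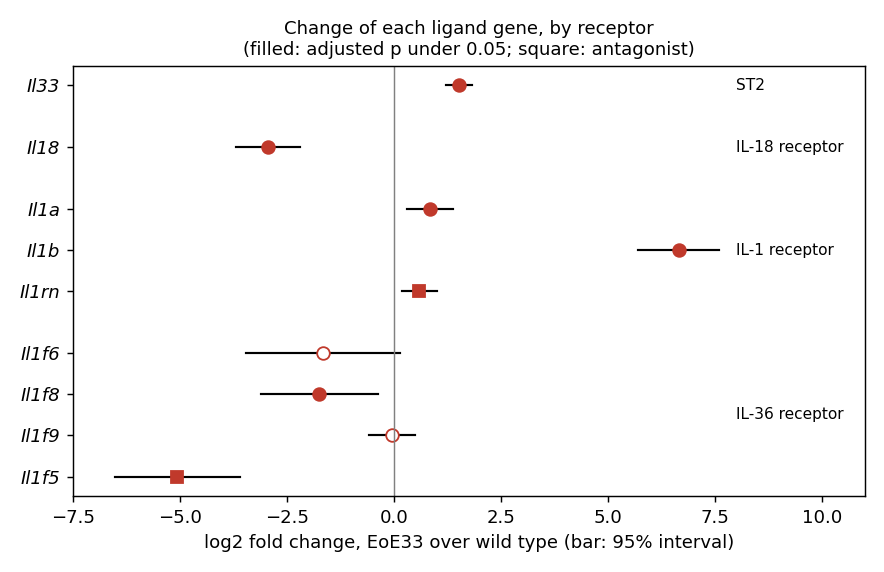
Log2 fold change of EoE33 over wild type for each ligand gene with its 95% interval, grouped by the receptor each ligand binds. Squares are the antagonists Il1rn and Il1f5 and open symbols did not pass the test. Il1rn rose by 0.60 on the log2 scale while Il1f5 fell by 5.06.

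At the IL-36 receptor the antagonist gene Il1f5 fell, while Il1rn rose. It was at 6.35, 0.585, 1.899 and 7.64 CPM in EoE33 replicates 1 to 4, against 131, 150.04, 159 and 113 CPM in wild type replicates 1 to 4. Replicates 2 and 3 were the lowest of the EoE33 libraries, and all of these lay far below wild type. Il1f5 was 33.3-fold lower (log2 −5.06 ± 0.63 SE, edgeR adjusted p = 0.000261).

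The 3 agonist genes did not share 1 response. Il1f8 was at 34.4, 3.92, 9.92 and 25.6 CPM in EoE33 replicates 1 to 4, against 60.3, 65.4, 78.7 and 42.7 CPM in wild type replicates 1 to 4. It was 3.34-fold lower, without overlap between groups (log2 −1.74 ± 0.59 SE, edgeR adjusted p = 0.0322). That call was lost without EoE33 replicate 3 (edgeR adjusted p = 0.0786) or without wild type replicate 1, 2 or 3 (0.0592, 0.0673 and 0.0716), and without wild type replicates 1 and 3 together (0.152). Il1f6 was at 61.3, 3.22, 10.4 and 44.5 CPM in EoE33 replicates 1 to 4, against 87.9, 103, 119.96 and 65.3 CPM in wild type replicates 1 to 4. The groups did not overlap, yet with a 19.0-fold range among EoE33 mice the gene did not pass (log2 fold change −1.65, 95% interval −3.45 to 0.14, edgeR adjusted p = 0.0953). Without EoE33 replicate 1, the highest of its group, its log2 value was −2.27 and it passed (edgeR adjusted p = 0.0451). Il1f9 was at 124, 73.1, 92.5 and 136 CPM in EoE33 replicates 1 to 4, against 102, 117, 143 and 76.1 CPM in wild type replicates 1 to 4. Its groups overlapped, with a log2 difference of −0.04 (95% interval −0.59 to 0.50, edgeR adjusted p = 0.887).

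The makeup of the IL-36 agonist transcripts differed between the groups. Per exon length, Il1f9 made up 64.4% ± 19.5 of the 3 agonists in EoE33 and 29.7% ± 0.446 in wild type (SD over 4 mice each). Il1f6 made up 23.9% ± 15.2 in EoE33 and 47.6% ± 0.550 in wild type (SD over 4 mice each). Shares of Il1f9 lay between 43.5% and 86.6% in EoE33 and between 29.3% and 30.2% in wild type, without overlap. The wild type mice were thus alike in these proportions and the EoE33 mice were not. The ratio of Il1f5 to the sum of the 3 agonists was 0.00818, 0.00254, 0.00556 and 0.0111 in EoE33 replicates 1 to 4, against 0.138, 0.138, 0.123 and 0.162 in wild type replicates 1 to 4. The mean log2 difference of that ratio was −4.55, again without a test.

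Il18, whose product epithelia and macrophages store, fell. Its level was 10.6, 4.92, 6.73 and 14.9 CPM in EoE33 replicates 1 to 4, against 67.7, 74.9, 84.5 and 58.5 CPM in wild type replicates 1 to 4. All EoE33 libraries lay below all wild type libraries. The fall was 7.67-fold (log2 −2.94 ± 0.32 SE, edgeR adjusted p = 0.000107). The nearest patterns over the 8 libraries were those of Psapl1, Gstm1, a glutathione transferase gene, and Mylk4, a kinase gene, with root mean square differences of 0.151, 0.183 and 0.204 in centred log2 CPM. Their log2 fold changes, −2.76, −3.00 and −2.98, were near that of Il18.

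Ligand genes that were lower in EoE33 varied among mice along with markers of differentiated squamous keratinocytes, the cells of the upper epithelial layers. The 13 markers summed to 39521, 15528, 22688 and 35795 CPM in EoE33 replicates 1 to 4, against 87364, 96505, 109555 and 66425 CPM in wild type replicates 1 to 4. Of the 13, 10 fell and 1, Dsc2, rose. Krt4 and Krt13 made up most of the sum, which is thus mainly a measure of these keratins. Krt4 was at 7550 ± 3236 CPM in EoE33 and 35829 ± 8241 CPM in wild type (SD over 4 mice each). Krt13 was at 17306 ± 5992 CPM in EoE33 and 33721 ± 7690 CPM in wild type (SD over 4 mice each). EoE33 replicate 2 was lowest both for this sum and for 5 of the 9 ligand genes, namely Il18, Il1f5, Il1f6, Il1f8 and Il1f9. Il1f6 and Il1f8 followed the order of the marker sum through all 4 EoE33 libraries, while Il18 and Il1f5 followed it but for replicates 1 and 4, which changed places. In wild type, replicate 4 was lowest for the marker sum and for 8 of the 9 ligand genes, all but Il1b, and replicate 3 was highest for the sum and for the same 8. The basal keratinocyte sum was likewise lowest in wild type replicate 4 (4084 CPM) and highest in replicate 3 (5624 CPM), while the smooth muscle sum was highest in replicate 4 (6647 CPM) and lowest in replicate 3 (3310 CPM). Il1f9 did not follow the sum across the groups. EoE33 replicates 1 and 4, with sums of 39521 and 35795 CPM, held 124 and 136 CPM of it, against 76.1 CPM in wild type replicate 4, with a sum of 66425 CPM. The part of differentiation, or of the share of epithelium in the sample, in these levels was not tested, and with 4 libraries a group no correlation is given.

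**Figure D3:**
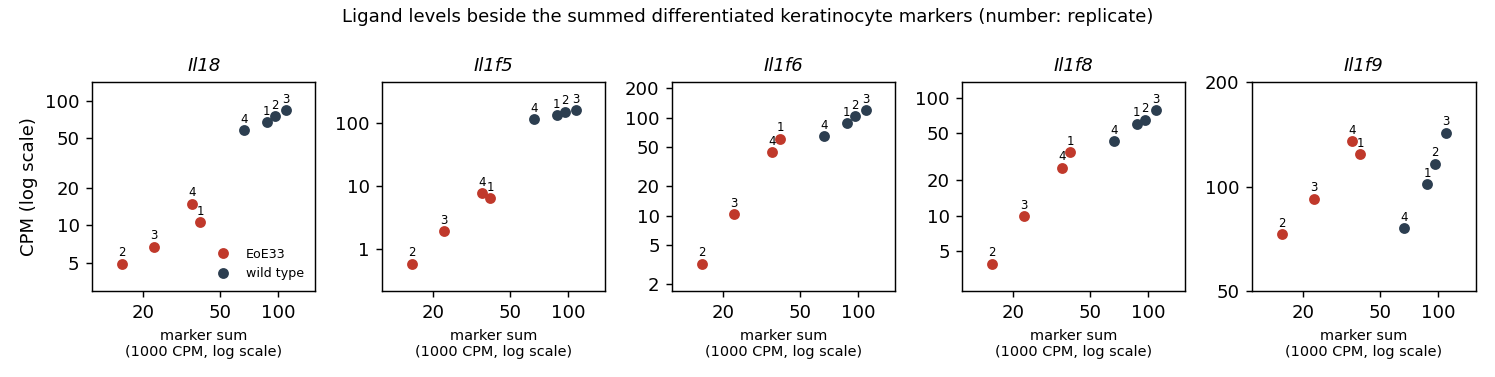
Level of 5 ligand genes (CPM, log axes with ranges that differ between panels) against the summed level of 13 differentiated keratinocyte markers (in 1000 CPM) in each of 4 EoE33 and 4 wild type libraries, numbered by replicate. Krt4 and Krt13 make up most of the sum. EoE33 replicate 2, with the smallest sum (15528 CPM), is the lowest point in every panel, and only in Il1f9 do the groups overlap in level.

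Across the family, the order of levels was rearranged. Per kilobase of exon, EoE33 mice held most Il33 (129 ± 5.59 CPM per kilobase), then Il1f9 (64.5 ± 17.4), Il1b (52.4 ± 19.6), Il1f6 (33.8 ± 31.3), Il1f8 (15.2 ± 11.504), Il1rn (11.9 ± 1.06), Il1a (11.7 ± 2.19), Il18 (9.003 ± 4.30) and Il1f5 (0.917 ± 0.758; SD over 4 mice each). In that order the ranges of Il33 and Il1f9 and those of Il18 and Il1f5 did not overlap, while the ranges of all other neighbours did. Wild type mice held most Il1f6 (107 ± 26.3 CPM per kilobase), then Il18 (69.2 ± 10.7), Il1f9 (66.4 ± 17.0), Il1f8 (50.8 ± 12.3), Il33 (44.7 ± 9.37), Il1f5 (30.8 ± 4.55), Il1rn (7.89 ± 2.08), Il1a (6.52 ± 2.03) and Il1b (0.518 ± 0.231; SD over 4 mice each). There the ranges of neighbours were apart between Il1f5 and Il1rn and between Il1a and Il1b. Lengths were those of all annotated exons of a gene together, so a gene with long rarely used exons is placed lower than its main transcript would be. Il33 counts in EoE33 may hold transcripts of the transgene, whose length is not known. The place of Il33 in this order, and its share below, are therefore not those of the mouse's own gene alone.

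The summed level of the 7 agonists was 315 ± 43.8 CPM per kilobase in EoE33 and 345 ± 77.1 in wild type (SD over 4 mice each), and the group ranges overlapped. Within that sum Il33 made up 41.6% ± 7.96 in EoE33 and 13.02% ± 0.691 in wild type (SD over 4 mice each). Il1b made up 17.2% ± 7.68 in EoE33 and 0.162% ± 0.106 in wild type. Il18 made up 2.77% ± 1.04 in EoE33 and 20.3% ± 1.60 in wild type. The 3 IL-36 agonists together were at 113 ± 58.9 CPM per kilobase in EoE33 and 224 ± 55.5 in wild type. Transcript shares do not give shares of active protein.

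**Figure D4:**
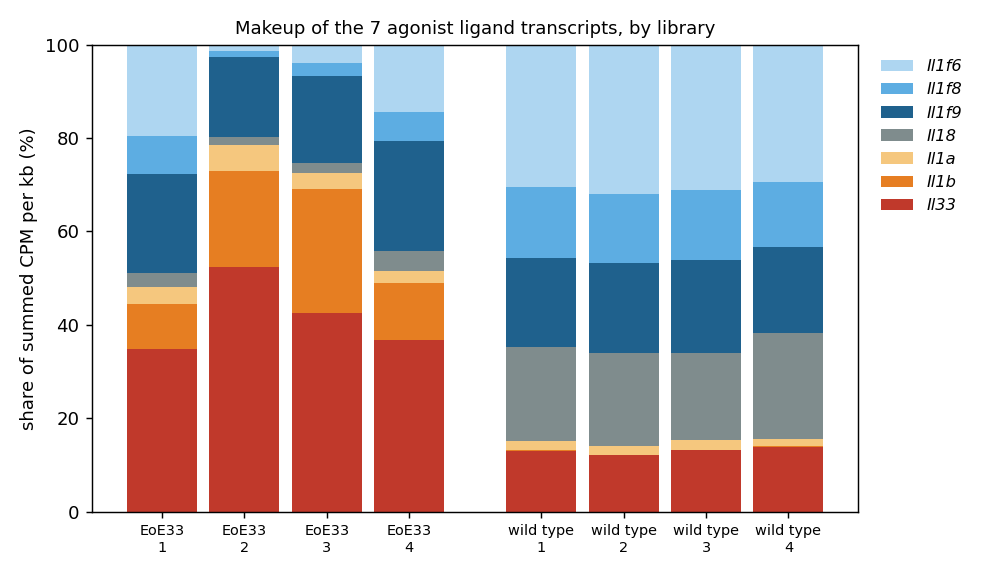
Share of each agonist gene in the summed length-scaled level (CPM per kilobase) of 7 agonist genes, for each of 4 EoE33 and 4 wild type libraries. The share of Il33 lies between 34.8% and 52.5% in EoE33 and between 12.1% and 13.8% in wild type.

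Genes next to the ligands in the genome did not share 1 direction. Psd4, the protein-coding gene after Il1rn, rose by 0.66 ± 0.08 on the log2 scale (SE; edgeR adjusted p = 6.81e-05). Between Il1f5 and Il1rn lies Il1f10, the gene of the ligand IL-38, with 2 counts over the EoE33 libraries and 12 over the wild type libraries, too few to test. Ckap2l, a mitotic spindle gene beside Il1a, rose by 1.43 ± 0.13 on the log2 scale (SE; edgeR adjusted p = 1.64e-05). The antisense transcript Il1bos shares 25 exon bases with Il1b and was lower in EoE33, with 22 counts over the EoE33 libraries and 115 over the wild type libraries (log2 fold change −2.18, edgeR adjusted p = 0.00351). Gm14023, on the opposite strand of Il1a, shares 222 exon bases with it and was also lower (log2 fold change −0.91, edgeR adjusted p = 0.00409). Both moved against the ligand they overlap, and whether reads were counted by strand is not stated in the labels. Il18 overlaps Bco2 and Tex12 on the opposite strand with 0 shared exon bases. Of the 150-base windows of the longest transcript, 4.16% of Il1a, 0.0667% of Il1f9 and 0% of the other 7 genes occur in transcripts of another gene.

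Most genes of receptors and decoys of the family were higher, with 7 of 9 risen and 1 fallen, where 31.3% of all genes tested rose and 32.1% fell. Their median log2 fold change was 1.04, where that of all genes tested was −0.01. The 7 that rose include Il18bp and Sigirr, which restrain signalling rather than carry it, with log2 fold changes of 0.65 and 0.89. Il1rl2, the IL-36 receptor, was at 124 ± 8.89 CPM in EoE33 and 56.9 ± 9.23 CPM in wild type (SD over 4 mice each; log2 fold change 1.12, edgeR adjusted p = 3.39e-05). The shared chain Il1rap was at 33.4 ± 1.33 CPM in EoE33 and 16.2 ± 1.36 CPM in wild type (SD over 4 mice each). Il18rap, a chain of the IL-18 receptor, rose 7.77-fold, while its partner Il18r1 was at 2.55 ± 0.650 CPM in EoE33 and 2.10 ± 1.14 CPM in wild type (SD over 4 mice each) and did not pass (edgeR adjusted p = 0.544). The decoy receptor Il1r2, which binds IL-1 without signalling, was the member that fell, to 15.4 ± 4.44 CPM in EoE33, against 61.8 ± 9.99 CPM in wild type (SD over 4 mice each).

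Of receptor adaptors and kinases 4 of 15 rose and 4 fell, near or below the 31.3% and 32.1% of all genes, with a median log2 fold change of −0.02. The adaptor Myd88 and the kinase Irak4 rose 1.70-fold and 1.99-fold. The ubiquitin ligase genes Peli1, Traf6 and Peli2 had log2 fold changes of −1.04, −0.75 and −0.54, and the scaffold gene Tab2 of −0.38, all called lower. Of NF-kB subunits, kinases and inhibitors 14 of 15 rose, against 31.3% of all genes (median log2 fold change 1.16). Tnfaip3, an inhibitor that NF-kB itself induces, rose 10.7-fold, and the subunit genes Nfkb1 and Rel rose 3.65-fold and 2.52-fold. Nfkbiz, a nuclear cofactor of IL-36 and IL-17 responses, rose 3.57-fold.

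Of 29 genes of maturation and release, 27 were tested, 17 rose and 2 fell (median log2 fold change 0.999). The 19 called of 27 are near the 63.4% of all genes that were called. By direction, 17 of 27 rose where 31.3% of all genes did, and 2 fell where 32.1% did. Mefv and Ctsg, at wild type means of 0.416 and 0.172 CPM, passed the low-count filter through EoE33 and could hardly have been called lower. The caspase genes Casp4 and Casp8 rose 4.36-fold and 2.02-fold, and Casp1, the protease of IL-1 beta and IL-18, was at 21.96 ± 3.63 CPM in EoE33 and 24.8 ± 6.00 CPM in wild type (SD over 4 mice each; log2 fold change −0.17, edgeR adjusted p = 0.430). Gsdmc, a gasdermin gene, and the calpain gene Capn2 rose 8.85-fold and 2.00-fold. Gsdma, an epithelial gasdermin gene, and Nlrp10 were lower, by log2 values of −2.41 and −0.76 (edgeR adjusted p = 0.0228 and 0.0142). The call of Gsdma was lost without EoE33 replicate 3 (edgeR adjusted p = 0.0567), and those of Gsdma and Nlrp10 without wild type replicates 1 and 3 together (0.0985 and 0.0861) and with no filter on low counts (0.0735 and 0.0503).

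Genes that IL-1 or IL-36 can induce in epithelium rose in 17 of 19 tested members, and 1 fell (median log2 fold change 4.94). Il6, Il23a, Il24, Tnf, Il19 and Cxcl1 had wild type means of 0.0107, 0.0323, 0.0644, 0.224, 0.269 and 0.278 CPM. They passed the low-count filter through EoE33 and could hardly have been called lower. The count of risen members and the median were to that extent set by the filter. Of all genes tested, 31.3% rose and 32.1% fell. Cxcl3 and the cytokine gene Il19 rose 311-fold and 333-fold, and the growth factor gene Hbegf 8.41-fold. The folds of Cxcl3 and Il19 rest on 46 and 25 counts over the wild type libraries. Il23a, a subunit of IL-23, had 190 counts over the EoE33 libraries and 3 over the wild type libraries. Defb4, an epithelial defensin gene, fell to 34.3 ± 32.4 CPM in EoE33, against 441 ± 86.4 CPM in wild type (SD over 4 mice each). The difference was −3.69 on the log2 scale (edgeR adjusted p = 0.00785), and −4.29 when EoE33 replicate 1 was left out. S100a8 and S100a9 of this list are also neutrophil markers. S100a8 was at 298 ± 108 CPM in EoE33 and 1.77 ± 0.712 CPM in wild type, and S100a9 at 652 ± 246 CPM in EoE33 and 21.3 ± 6.20 CPM in wild type (SD over 4 mice each). Genes that IL-33 can induce through ST2 rose in 12 of 15 tested members, against 31.3% of all genes tested (median log2 fold change 2.99). Il6, Il13, Klrg1, Chil3 and Ccl22 of this list likewise passed the filter through EoE33, at wild type means of 0.0107 to 0.409 CPM. Arg1, the arginase of alternatively activated macrophages, the growth factor gene Areg and the chitinase-like gene Chil3 rose 19.9-fold, 23.3-fold and 118-fold. Klrg1, a receptor of group 2 innate lymphoid cells, rose 13.04-fold. Chil3 and Klrg1 had 38 and 14 counts over the wild type libraries. Other genes of this list tied to group 2 innate lymphoid cells differed in their results. Il13, a cytokine gene, rose 48.3-fold, with 193 counts over the EoE33 libraries and 4 over the wild type libraries (edgeR adjusted p = 6.17e-05). Il1rl1, the gene of ST2, rose 3.45-fold (edgeR adjusted p = 0.00823). Gata3, Il5 and Il4 did not pass. Gata3, a transcription factor of type 2 lymphocytes, was at 1.52 ± 0.618 CPM in EoE33 and 0.956 ± 0.549 CPM in wild type (edgeR adjusted p = 0.205). The cytokine genes Il5 and Il4 had log2 fold changes of −0.03 and −0.06 (edgeR adjusted p = 0.932 and 0.856). The value for Klrg1 was a log2 fold change of 3.70, and 4.45 without wild type replicates 1 and 3. Other cytokines can induce the genes of both lists, and these data do not say which did.

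**Figure D5:**
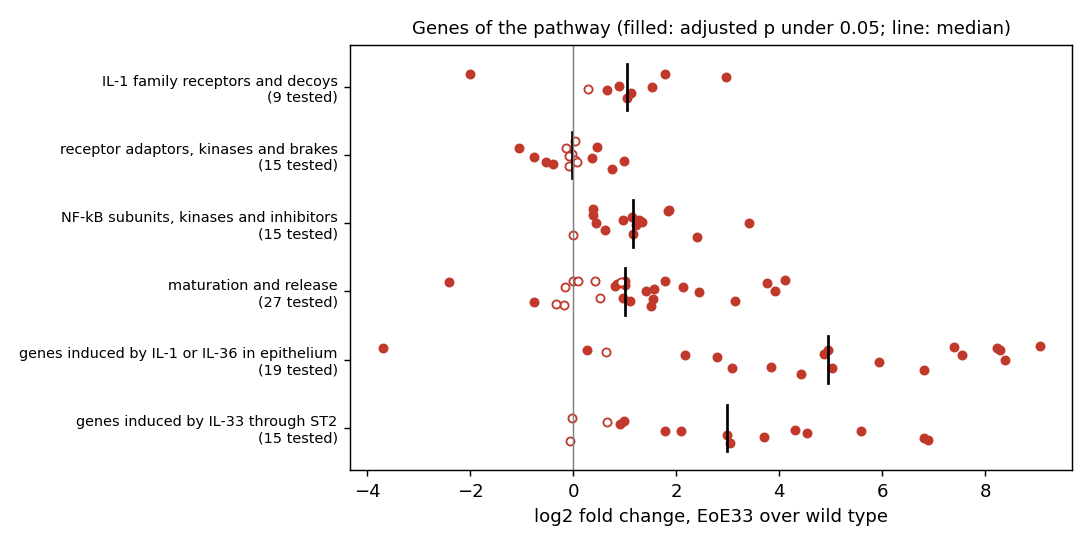
Log2 fold change of EoE33 over wild type for each tested gene of 6 pathway lists, 4 libraries in each group. Filled points passed the test and vertical lines are list medians, which lie between −0.02 for receptor adaptors and kinases and 4.94 for genes induced by IL-1 or IL-36.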

How the data were processed

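RNA of 8 whole esophagi was enriched for polyA and read from both ends on the HiSeq platform, per the labels' protocols. The authors deposited raw counts per gene for 49315 Ensembl identifiers, and 0 count columns were left unused. The submitters' processing notes name Trimmomatic 0.36, STAR 2.5.2b, featureCounts, Subread 1.5.2 and GRCm38, with no roles. They do not say which gene models were used or how strand and multi-mapped reads were handled. Columns were assigned to mice by the spreadsheet letter in each description. Libraries held 17.7 to 24.1 times 1e6 counts. Replicates differed beyond sampling noise, with chi-square 10.4 to 70.1 per degree of freedom. The labels do not say that mice of a number belong together.

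GENCODE M21 (GRCm38) gave symbols, coordinates and exon lengths for 49056 identifiers, and 259 did not match. Genes passing edgeR's filterByExpr (16760) entered the quasi-likelihood test of edgeR 4.0.16 (robust glmQLFit, then glmQLFTest; R 4.3.3), with TMM scaling, genotype as the only term and Benjamini-Hochberg adjustment over all genes. Genes with few counts in wild type could pass the filter through EoE33 alone and could then hardly be called lower, which touches several lists. Standard errors came from the quasi-likelihood F statistic. CPM used TMM-scaled library sizes, and CPM per kilobase divided it by the union of annotated exons. Alternatives were other scalings and filters, DESeq2 1.42.0, limma-voom (limma 3.58.1), a term for the replicate number or for skeletal muscle level, and leaving out libraries. The fit was tested on simulated counts.

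Members, the 6 pathway and 13 marker lists and the naming rule were chosen with earlier results of these data known. From each pathway list the rule named up to 4 genes with the smallest p and called genes that went against their list, and for Il33, Il1b and Il18 the 3 nearest patterns among genes of at least 1 CPM, with 0.5 CPM added before the log. Casp1, Il18r1, Gata3, Il4, Il5, Il13, Il1rl1, Ltf, S100a8, S100a9, Krt5, Krt14, Krt15, Dst and Cyp2f2 were added after their values were seen. So were Il18bp, Sigirr, Mefv, Ctsg, Il6, Il24, Tnf, Cxcl1, Ccl22, Ly6g, Mmp8, Ngp, Siglecf, Ccr3, Prg2, Rnase2a and Il5ra. The same holds for Krt4, Krt13, Dsc2, H2-Aa, Zbtb46, Xcr1, Clec9a, Cd209a, Cd207, Des and Lmod1. Shown promoter windows were those nearest the annotated start, and shares over all genes used the first window of each.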

Additional observations from a re-analysis of the deposited data

Results flagged for a closer look

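Il1rn in EoE33 replicate 1, at 74.8 CPM, stood apart from the other 3 EoE33 libraries, which lay between 62.3 and 63.6 CPM. The gap took 0.893 of the range of the group, above Dixon's critical value for 4 samples. It was 1 of 24 groups examined (9 genes and 3 ratios or shares in each genotype), and chance flags about 1 in 20.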

How the results depend on the processing

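Of 18 alternatives, 17 left the ligand calls between 6 and 8 of 9. In all 17 Il1a, Il1b, Il1rn and Il33 were called higher and Il18 and Il1f5 lower. Il1f8 was called in 10 of 17 (it also missed with no filter, adjusted p = 0.0987, and without wild type replicates 1 and 3, 0.152), Il1f6 in 2 (limma-voom adjusted p = 0.0310, and without EoE33 replicate 1) and Il1f9 in 0. Il1f9 changed sign with the library size taken without Chil4 (log2 0.063) and without wild type replicates 1 and 3 (0.13), and ranged from −0.19 to 0.11 over the fits leaving out 1 library. Genes called over the whole table numbered 8827 without wild type replicates 1 and 3, 11297 with DESeq2 and 9705 to 10467 leaving out 1 library. With the library size taken without Chil4, 6070 genes were higher and 4550 lower, against 5238 and 5383 otherwise. With the skeletal muscle level as a term, all 8 counts (genes, ligands and the 6 pathway lists) were 0 at adjusted p under 0.05, and 791 genes had an unadjusted p under 0.05. That level does not overlap between EoE33 and wild type, so the 2 cannot be told apart. In that fit Il33 (log2 1.67), Il1b (4.52), Il1rl2 (1.85), Gsdmc (4.62) and Nfkbiz (1.91) kept their sign. It turned the sign of Il1a (−0.43), Il18 (1.011), Il1f6 (0.85), Il1f8 (0.29), Il1f9 (1.98), Il18rap (−1.98), Traf6 (0.97), Nlrp10 (1.22) and Gsdma (0.75). The replicate block called 10056 genes and 6 ligands, Il1f8 being lost (adjusted p = 0.0624), as was Nlrp10 (0.0696). Correlations of same-numbered mice ranged from −0.136 to 0.104, and those of mice of unlike number from −0.118 to 0.152. These values show no pairing by number but cannot exclude one. Fits leaving out 1 mouse gave −2.74 to −2.35 for the log2 difference of the Il1rn ratio, −4.84 to −4.14 for that of the Il1f5 ratio and 25.0 to 30.9 points for the Il33 share. A count of 0 allows up to 0.125 to 0.169 CPM, for counting error only.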

Other observations

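Further cell types that can make or answer IL-1 family ligands differed in their markers. Mast cells carry ST2 and are activated by IL-33. Their 8 markers rose in 5 cases and summed to 99.7 to 173 CPM in EoE33 and 19.5 to 71.6 CPM in wild type. Of 8 eosinophil markers 6 were tested and all 6 rose, with sums of 43.3 to 62.2 CPM in EoE33 and 0.878 to 3.55 CPM in wild type. Siglecf, Ccr3, Prg2, Rnase2a and Il5ra had wild type means of 0.149, 0.128, 0.0636, 0.0742 and 0.383 CPM. These passed the low-count filter through their EoE33 counts and could hardly have been called lower, so the count of risen markers was largely set by the filter. Of 9 dendritic cell markers 4 rose and 1 fell, with sums of 218 to 263 CPM in EoE33 and 79.9 to 153 CPM in wild type. H2-Aa made up most of these sums, at 196 ± 18.3 CPM in EoE33 and 87.1 ± 24.6 CPM in wild type (SD over 4 mice each). Zbtb46 was the member that fell, and Xcr1, Clec9a, Cd209a and Cd207 did not pass. Smooth muscle markers fell in 5 of 7 members, with sums of 2033 to 2256 CPM in EoE33 and 3310 to 6647 CPM in wild type. Des carried much of the gap, at 966 ± 70.8 CPM in EoE33 and 2696 ± 272 CPM in wild type (SD over 4 mice each). The groups were apart in Des and Lmod1 and overlapped in every other member, so the gap in the sums is not shared by the list.

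Markers of other tissue differed between libraries. Airway markers summed to 58.7 to 132 CPM in EoE33 and 374 to 1930.1 CPM in wild type, the highest in wild type replicate 3, with 3 of 4 tested members lower in EoE33. Cyp2f2 made up most of that sum outside wild type replicate 3, at 54.0 to 131 CPM in EoE33 and 367 to 784 CPM in wild type. Hepatocyte markers summed to 1.58 to 5.22 CPM in EoE33 and 5.70 to 176 CPM in wild type, the highest in wild type replicate 1, with 2 of 3 tested members lower in EoE33. Without those 2 libraries the log2 fold changes of Il33, Il1b, Il18 and Il1f5 were 1.70, 6.28, −2.85 and −4.99.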
